A study of Mus musculus with 4 samples.

Results

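The genes described here are 10 genes of macrophages, Langerhans cells and the MHC class II pathway: Cd74, H2-Aa, H2-Ab1, H2-Eb1, Cd207, Lyz2, Ctss, Adgre1, Csf1r and Cd68. They were taken as a named list of myeloid and antigen presentation genes, with no threshold on their values, and are 10 of the 22524 genes counted. All 10 had a row, and all 10 had enough reads to be among the 14265 genes tested. RNA was sequenced from mouse cells labelled as pre-tumorigenic dermal hyperplasia, which had been marked in vivo by tamoxifen with the red fluorescent protein tdTomato and sorted as tdTomato-positive cells. All mice carried Tyr::NrasQ61K, an oncogenic Nras under the promoter of the melanocyte gene tyrosinase, together with Tyr::CreERT2, a tamoxifen-dependent recombinase under the same promoter, and the R26R-LSL-tdTomato reporter. The 2 libraries named NrasQ61K came from such mice, and the 2 named Ezh2Y646N also carried ColA1-LSL-Ezh2Y646N, a conditional allele of a mutant form of the histone methyltransferase Ezh2. The comparison asks which RNAs differed between NrasQ61K cells with and without mutant Ezh2. The labels give no age and do not say whether the libraries of a group came from separate animals. So a p-value here reflects only how far these libraries spread. That spread may be technical in NrasQ61K, while the Ezh2Y646N libraries differed in a Y-linked gene, as given below.

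MHC class II molecules carry peptides from engulfed proteins to the surface of antigen presenting cells, where CD4 T cells read them. Each is a pair of an alpha and a beta chain that is escorted through the cell by the invariant chain, Cd74, until cathepsin S, the product of Ctss, cuts that chain and frees the groove for peptide. In skin the main carriers are Langerhans cells, which sit among the keratinocytes and are marked by langerin (Cd207), and the macrophages and dendritic cells of the dermis, and both Langerhans cells and macrophages depend on the receptor Csf1r. Melanocytes are not professional antigen presenting cells, although melanoma cells can carry MHC class II.

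The promoters of MHC class II chain genes share an X box, bound by the RFX complex, and a Y box, bound by NF-Y, which together recruit the transactivator Ciita. Those of H2-Aa and H2-Eb1 are shown here because these 2 of the 4 MHC class II members are in the promoter table. Whether the boxes bear on the RNA levels of these libraries was not tested. Of the 10 members, 6 were found in RefSeq's promoter table of build GRCm38.p6, namely H2-Aa, H2-Eb1, Cd207, Lyz2, Ctss and Cd68, while Cd74, H2-Ab1, Adgre1 and Csf1r were not. The stretches lie at chr17:34287844-34287943 on the minus strand for H2-Aa and at chr17:34305747-34305846 on the plus strand for H2-Eb1, each from 120 to 21 bases upstream of the gene's start. Capitals mark GCAACT, a run within the X box region, and GATTGG, the core of the Y box, or its reverse complement.
H2-Aa: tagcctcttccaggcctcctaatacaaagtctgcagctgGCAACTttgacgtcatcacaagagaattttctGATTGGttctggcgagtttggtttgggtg
H2-Eb1: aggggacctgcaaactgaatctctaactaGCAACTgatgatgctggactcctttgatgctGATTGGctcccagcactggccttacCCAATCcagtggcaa
GCAACT began 32 bases before GATTGG in H2-Aa and 31 bases before it in H2-Eb1. In all 32851 promoters of the table, each 300 bases long and searched on both strands, GATTGG was found in 16.1%, GCAACT in 10.9%, and GCAACT with GATTGG starting 25 to 40 bases away on the same strand in 0.122%, which is 40 promoters. GCAACT and this spacing were chosen after the sequences were seen. The X box core AGNNACNGA was found in H2-Eb1 only among the 6 member promoters, where it overlaps GCAACT, and in 17.7% of all promoters. GATTGG was also found in the promoter of Cd68, 84 bases upstream. The ETS motif GAGGAA, of the type bound by the macrophage factor PU.1, was found in the promoters of Ctss, Cd207 and Cd68 and in 28.3% of all promoters. A match describes these letters in this window and is not a measured binding site.

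Libraries held between 14808801 and 20600297 counts, and genes varied between libraries of a group with a coefficient of variation of 27.9% beyond counting noise. CPM, counts scaled to a common library size, was computed here with TMM scaling (trimmed mean of M-values). Ezh2 reached 135 and 91.6 CPM with the Ezh2Y646N label and 171 and 75.1 CPM with the NrasQ61K label. Counts per gene do not tell mutant Ezh2 from the endogenous gene, so this does not check the labels. The Y-linked gene Ddx3y was at 120.5 CPM in Ezh2Y646N replicate 1, at 130 and 88.3 CPM in the NrasQ61K libraries and at 0.138 CPM in Ezh2Y646N replicate 2, which stands apart. The Ezh2Y646N libraries were therefore not repeats of 1 RNA sample, and Y-linked RNA was unbalanced between the groups. The sex of the animals was not tested otherwise. The melanocyte markers Dct, Tyrp1, Pmel and Tyr were present in every library, with Dct between 1486 and 2757 CPM and Tyr between 172 and 260.1 CPM. RNA of keratinocytes was also present, with keratin genes taking between 1.71% and 6.47% of counts.

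RNA of all 10 members was detected in all 4 libraries, and in each gene the mean was lower in Ezh2Y646N than in NrasQ61K. The log2 fold change of Ezh2Y646N over NrasQ61K ran from -0.43 for Cd207 to -1.65 for Ctss, with a median of -1.27 against -0.04 over all genes tested. None of the 10 passed edgeR's adjusted p of 0.05, which 0.673% of all genes passed as lower and 1.1% as higher. At an unadjusted p under 0.05 edgeR had 6 members as lower, where 7.02% of all genes were lower and 7.28% were higher. DESeq2, run as an alternative, passed 3 members as lower at an adjusted p under 0.05, namely Lyz2, Ctss and Cd68, where it passed 2.75% of all genes as lower and 3.69% as higher. A fold change below 0 was found for 54% of all genes. In 4 members, Lyz2, Ctss, Csf1r and Cd68, both Ezh2Y646N libraries lay below both NrasQ61K libraries, as was the case for 23.1% of all genes.

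**Figure D1:**
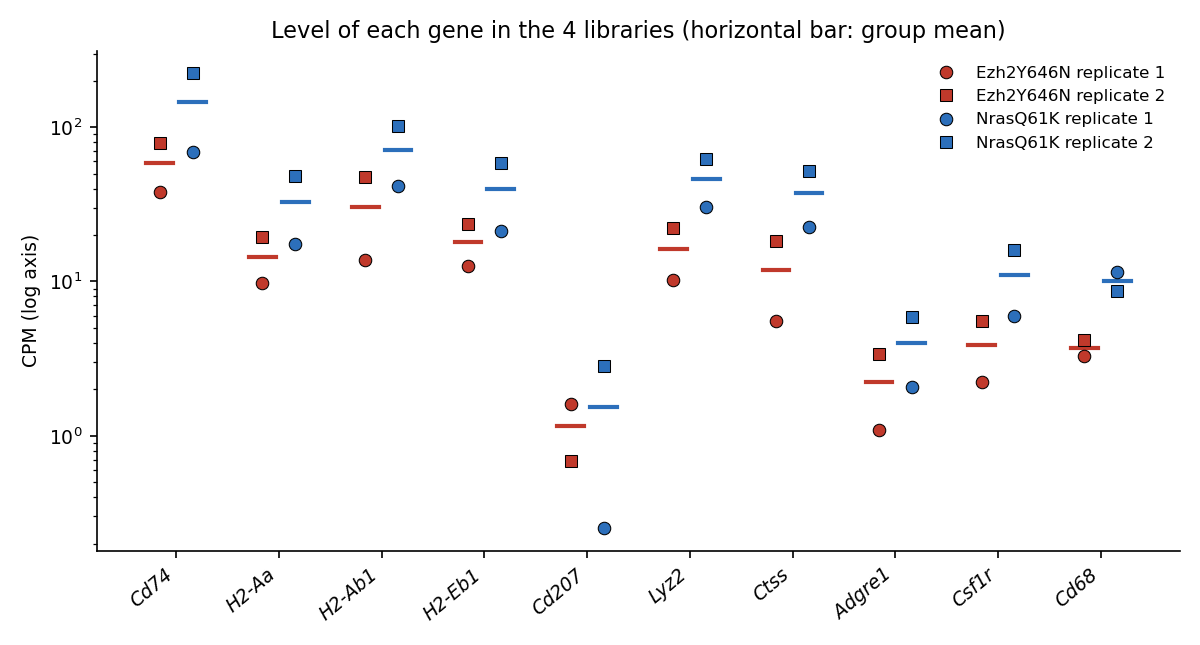
CPM of each of the 10 genes (log axis) in the 2 Ezh2Y646N and 2 NrasQ61K libraries, 1 point per library, with horizontal bars for the group means. NrasQ61K replicate 2 is the highest library for 9 genes and Ezh2Y646N replicate 1 the lowest for 9 genes.

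The members varied within each group as well as between groups. Ezh2Y646N replicate 1 was the lowest library for 9 of the 10, all but Cd207, and NrasQ61K replicate 2 was the highest for 9 of the 10, all but Cd68. A gene was lowest in the first of these libraries and highest in the second for 8 members, and for 8.38% of all genes tested. Replicate 2 exceeded replicate 1 for 9 members in each group, where it did so for 49.5% of all genes in Ezh2Y646N and 50.4% in NrasQ61K. The level in replicate 2 was 0.429 to 3.42 times that in replicate 1 in Ezh2Y646N and 0.759 to 11.2 times in NrasQ61K, while the NrasQ61K mean was 1.34 to 3.13 times the Ezh2Y646N mean. In bulk RNA, fewer cells of a type and less RNA per cell cannot be told apart. Whether the RNA came from tdTomato-positive cells or from other cells carried through the sort was not tested.

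Cd74, the invariant chain (ENSMUSG00000024610, GRCm38 chromosome 18, 60803848 to 60812652), was the member with the most RNA. It was measured at 38.2 and 78.8 CPM in Ezh2Y646N replicates 1 and 2 and at 69.1 and 223 CPM in NrasQ61K replicates 1 and 2. NrasQ61K replicate 2 was far above the other 3 libraries, and the groups overlapped, since Ezh2Y646N replicate 2 exceeded NrasQ61K replicate 1. Group means came to 58.5 ± 28.7 CPM in Ezh2Y646N and 146 ± 109 CPM in NrasQ61K (SD, n = 2 each). On the log2 scale Cd74 differed by -1.32 (SE, the standard error, 0.55), with an adjusted p of 0.327 in edgeR.

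H2-Ab1, the beta chain of the I-A molecule (ENSMUSG00000073421, chromosome 17, 34257689 to 34269419), was at 13.8 and 47.3 CPM in Ezh2Y646N and at 41.4 and 101 CPM in NrasQ61K. Its alpha partner H2-Aa (ENSMUSG00000036594, chromosome 17, 34282744 to 34287823) was at 9.71 and 19.3 CPM in Ezh2Y646N and at 17.6 and 48.3 CPM in NrasQ61K. The libraries stood in the same order for both genes: Ezh2Y646N replicate 1 lowest, NrasQ61K replicate 1 just below Ezh2Y646N replicate 2, and NrasQ61K replicate 2 highest. On the log2 scale the difference was -1.23 (SE 0.59) for H2-Ab1, with an adjusted p of 0.42 in edgeR, and -1.19 (SE 0.51) for H2-Aa, with an adjusted p of 0.35 in edgeR. H2-Eb1, the beta chain of the I-E molecule (ENSMUSG00000060586, chromosome 17, 34305867 to 34316674), was at 12.5 and 23.4 CPM in Ezh2Y646N and at 21.3 and 58.4 CPM in NrasQ61K. Its log2 fold change was -1.15 (SE 0.50), with an adjusted p of 0.349 in edgeR, and its groups overlapped in the same way. These 3 genes are neighbours in the MHC on chromosome 17.

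H2-Aa and H2-Eb1 kept nearly the same proportion to Cd74 in every library. H2-Aa stood at 0.255 and 0.244 of Cd74 in Ezh2Y646N and at 0.254 and 0.217 in NrasQ61K, each a ratio of CPM within a library. H2-Eb1 stood at 0.328 and 0.297 of Cd74 in Ezh2Y646N and at 0.308 and 0.262 in NrasQ61K. H2-Ab1 varied more, at 0.363 and 0.600 of Cd74 in Ezh2Y646N and 0.599 and 0.455 in NrasQ61K. For each of the 3 ratios the groups overlapped.

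Ctss, cathepsin S (ENSMUSG00000038642, chromosome 3, 95526786 to 95556403), had the lowest fold change of the 10. It was measured at 5.52 and 18.4 CPM in Ezh2Y646N and at 22.4 and 52.3 CPM in NrasQ61K. The groups did not overlap, although NrasQ61K replicate 1 lay close to Ezh2Y646N replicate 2. Its log2 fold change was -1.65 (SE 0.59), with an adjusted p of 0.244 in edgeR. DESeq2 gave an adjusted p of 0.0483, and over all alternatives Ctss ranged from 3.54e-06 to 0.623.

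Lyz2, lysozyme M of macrophages and granulocytes (ENSMUSG00000069516, chromosome 10, 117277331 to 117282321), was at 10.2 and 22.3 CPM in Ezh2Y646N and at 30.5 and 61.9 CPM in NrasQ61K. Both Ezh2Y646N libraries were below both NrasQ61K libraries, with means of 16.2 ± 8.58 and 46.2 ± 22.2 CPM (SD, n = 2 each). Lyz2 had a log2 fold change of -1.51 (SE 0.46), with an adjusted p of 0.164 in edgeR and 0.0233 in DESeq2. Over all alternatives the adjusted p of Lyz2 ranged from 1.47e-05 to 0.516. Lyz2 has a near-identical neighbour, Lyz1, which was at 0.115 and 0.760 CPM in Ezh2Y646N and 0.379 and 3.98 CPM in NrasQ61K, and reads shared by the pair may have been divided or lost.

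Cd68, a lysosomal membrane protein of macrophages (ENSMUSG00000018774, chromosome 11, 69664213 to 69666153), was at 3.28 and 4.14 CPM in Ezh2Y646N and at 11.4 and 8.68 CPM in NrasQ61K. It was the member whose libraries agreed best within a group, with means of 3.71 ± 0.614 and 10.1 ± 1.95 CPM (SD, n = 2 each). Its groups did not overlap. Cd68 had a log2 fold change of -1.44 (SE 0.39), with an adjusted p of 0.128 in edgeR and 0.0455 in DESeq2. Over all alternatives the adjusted p of Cd68 ranged from 0.0176 to 0.452.

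Csf1r, the receptor for the growth factors Csf1 and Il34 (ENSMUSG00000024621, chromosome 18, 61100598 to 61132149), was at 2.24 and 5.52 CPM in Ezh2Y646N and at 5.94 and 16.1 CPM in NrasQ61K. The groups did not overlap, but the nearest libraries were at 5.52 and 5.94 CPM. For Csf1r the log2 fold change was -1.51 (SE 0.61), with an adjusted p of 0.309 in edgeR. Csf1r shares 873 bases of exon with Hmgxb3 on the opposite strand, which had between 755 and 1361 counts per library against 39 to 335 for Csf1r. The strand setting of the counting is not given in the sources used here, so the counts of Csf1r are uncertain.

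Adgre1, the F4/80 antigen of mouse macrophages (ENSMUSG00000004730, chromosome 17, 57358691 to 57483527), was at 1.09 and 3.38 CPM in Ezh2Y646N and at 2.09 and 5.85 CPM in NrasQ61K. The groups overlapped, and the counts behind these values were between 19 and 122. Adgre1 had a log2 fold change of -0.84 (SE 0.74), with an adjusted p of 0.714 in edgeR. Cd207, langerin, the defining gene of Langerhans cells (ENSMUSG00000034783, chromosome 6, 83671215 to 83677857), was at 1.61 and 0.691 CPM in Ezh2Y646N and at 0.253 and 2.83 CPM in NrasQ61K. These rest on 28, 10, 4 and 59 counts, and the NrasQ61K libraries were the lowest and the highest of all 4. Cd207 had a log2 fold change of -0.43 (SE 1.06), with an adjusted p of 0.919 in edgeR, so no difference was detectable at this depth.

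Levels between genes can be compared only per length, here as CPM per kilobase of exon. The mean over the 4 libraries was 60.9 for Cd74, 23.7 for Lyz2, 19.8 for H2-Ab1, 18.2 for Ctss, 14.9 for H2-Eb1, 6.24 for H2-Aa, 5.48 for Cd68, 1.29 for Csf1r, 0.958 for Adgre1 and 0.884 for Cd207. Cd74 exceeded Lyz2, H2-Eb1 exceeded H2-Aa, and Cd68 exceeded Csf1r in 4 of 4 libraries. The other neighbours in this order changed places in at least 1 library, and H2-Aa with Cd68 and Adgre1 with Cd207 did so in 2 of 4. So Cd74 stood above all the others, Lyz2, H2-Ab1, Ctss and H2-Eb1 formed a middle range, and the macrophage receptors and langerin were lowest.

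**Figure D2:**
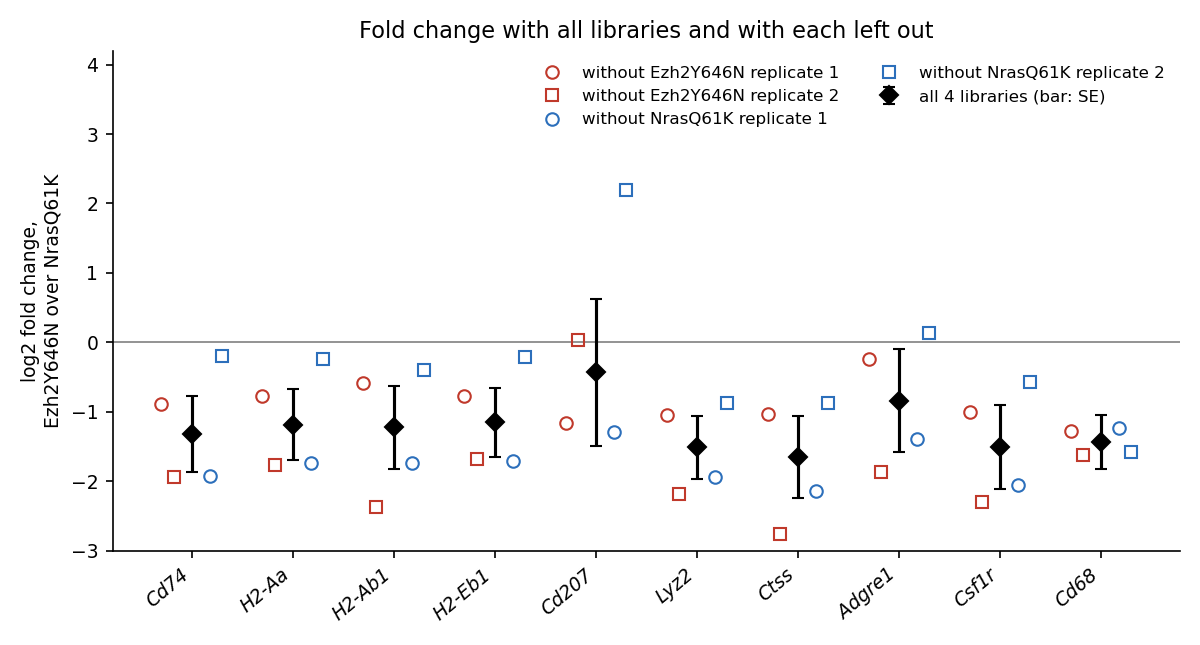
log2 fold change of Ezh2Y646N over NrasQ61K for each gene, from all 4 libraries (diamonds, bars are the SE) and after leaving out each library in turn (open symbols). Without NrasQ61K replicate 2 most values move towards 0, to -0.20 for Cd74 and 0.14 for Adgre1, and Cd207 moves to 2.20, while Cd68 stays at -1.58.

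The members' median moved most when NrasQ61K replicate 2 was left out. It was then -0.32, against -1.27 with all libraries, and 8 of the 10 were below 0. The 4 MHC class II chain members, counting Cd74 with the 3 H2 chains, then had a median of -0.22, and Cd74 alone had -0.20. The 4 macrophage members, Lyz2, Adgre1, Csf1r and Cd68, had a median of -0.72. Cd68 was the least moved, at -1.58. Without NrasQ61K replicate 1 the members' median was -1.74, and edgeR then passed Cd74, H2-Aa and H2-Eb1 with adjusted p of 0.0479, 0.0332 and 0.0251, where 1.48% of all genes passed as lower. In each fit without a library, the lone library left in its group is assumed to vary like the 2 of the other group, which alone give the spread. Without Ezh2Y646N replicate 1 the members' median was -0.94 and without Ezh2Y646N replicate 2 it was -1.90, with no member past the adjusted threshold in edgeR.

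The receptor-type tyrosine phosphatase Ptprc, or CD45, is carried by nearly all leukocytes and was at 4.54 and 6.56 CPM in Ezh2Y646N and at 7.52 and 18.9 CPM in NrasQ61K. Its log2 fold change was -1.26 (SE 0.49), with an adjusted p of 0.292 in edgeR, and its groups did not overlap. Without NrasQ61K replicate 2 the log2 fold change of Ptprc was -0.40. Relative to Ptprc in the same library, all 10 members overlapped between groups. This rests on 1 gene with 79 to 394 counts per library. The 10 members summed to 98.2 and 223 CPM in Ezh2Y646N and 222 and 578 CPM in NrasQ61K. The pan-leukocyte list summed to 69.9 and 98.7 CPM and to 58.4 and 146 CPM, and unlike Ptprc it was lowest in NrasQ61K replicate 1. A large part of these sums was Arhgdib, at 49.0 and 53.5 CPM in Ezh2Y646N and 17.3 and 42.1 CPM in NrasQ61K. Arhgdib was also lowest in NrasQ61K replicate 1. Set against these list sums, the summed members stood higher in both NrasQ61K libraries than in both Ezh2Y646N libraries. So the overlap holds for Ptprc and not for the summed pan-leukocyte list. Other leukocyte references were not tested. The 4 MHC class II chain members summed to 16.4 and 25.7 times Ptprc in Ezh2Y646N and 19.9 and 22.8 times in NrasQ61K. The 4 macrophage members summed to 3.70 and 5.39 times Ptprc in Ezh2Y646N and 6.65 and 4.90 times in NrasQ61K. Relative to the summed melanocyte list, the 10 members stood at 0.0253 and 0.0562 in Ezh2Y646N and at 0.0836 and 0.167 in NrasQ61K, with no overlap. The melanocyte list itself summed to 3880 and 3970 CPM in Ezh2Y646N and to 2656 and 3457 CPM in NrasQ61K, also with no overlap. The members' own sums, given above, did overlap, so this separation is not a trait of the members alone. Cd207 again had the widest spread, from 0.0336 of Ptprc in NrasQ61K replicate 1 to 0.354 in Ezh2Y646N replicate 1.

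**Figure D3:**
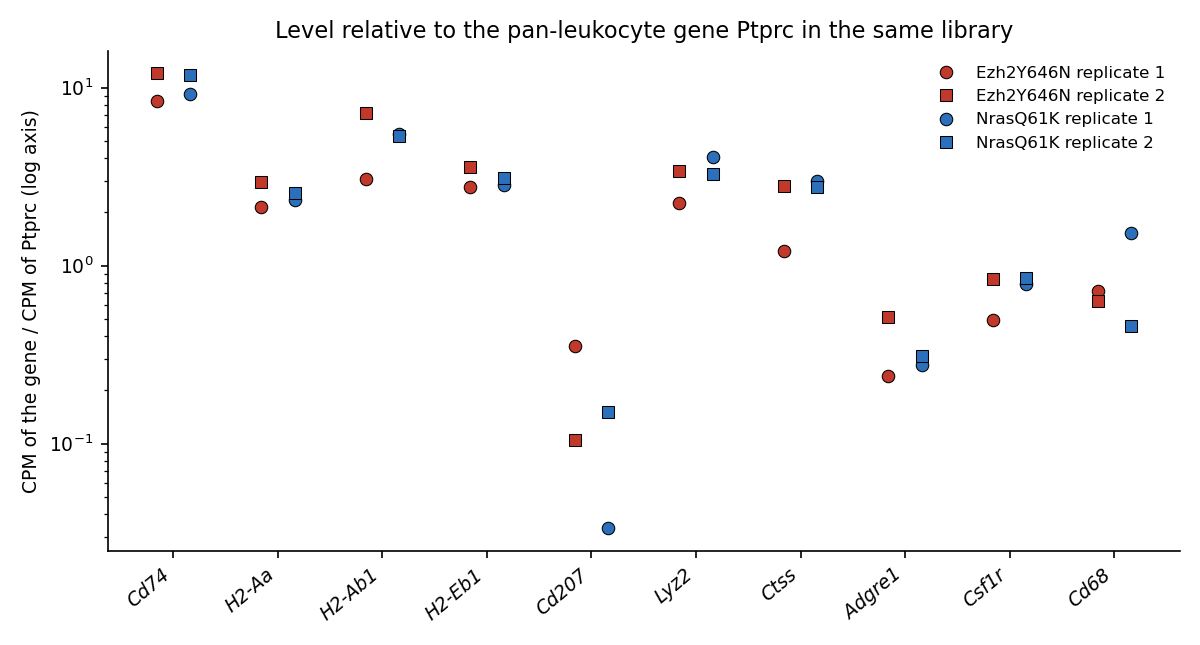
CPM of each gene divided by the CPM of Ptprc in the same library (log axis), 1 point per library. The libraries of both groups overlap for all 10 genes, and Cd74 lies between 8.41 and 12.0 times Ptprc in all 4 libraries.

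The other genes of the MHC class II pathway had a median log2 fold change of -0.16, and -0.07 or -0.39 with NrasQ61K replicate 2 or replicate 1 left out. Of these 12 tested genes, 8 were below 0 and 4 above, and none passed the test in edgeR or DESeq2 in either direction. Ciita, the transactivator of MHC class II genes, was at 2.41 and 5.59 CPM in Ezh2Y646N and 2.78 and 4.70 CPM in NrasQ61K, with a log2 fold change of 0.09 (SE 0.57). The RFX subunits, which bind the X box shown above, differed on the log2 scale by 0.01 (SE 0.23) for Rfx5, by 0.39 (SE 0.26) for Rfxap and by -0.20 (SE 0.27) for Rfxank. The proteases Ctsl and Lgmn and the thiol reductase Ifi30, which act in the endosome, had values of -0.12 (SE 0.22), -0.33 (SE 0.24) and 0.07 (SE 0.24). The adjusted p of these 7 genes in edgeR was between 0.589 and 0.991.

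The peptide exchange factor genes of the pathway had few counts. H2-DMa had a log2 fold change of -1.24 (SE 0.72) and its partner H2-DMb1 one of -0.38 (SE 0.46). H2-Ob, a subunit of the inhibitor of that exchange, had -0.12 (SE 1.52), while H2-Oa, H2-DMb2 and the costimulatory gene Cd80 were each under 0.7 CPM in every library and H2-Eb2 had no count. For the costimulatory genes Cd86 and Cd40 the log2 fold change was -2.09 (SE 0.97) and -1.12 (SE 0.85), at no more than 2.83 CPM in any library. H2-DMa, at 0.977 and 2.07 CPM in Ezh2Y646N and 1.83 and 5.32 CPM in NrasQ61K, stood in the same order of libraries as the H2 chains.

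Of the 23 other tested genes of the macrophage list, 21 were below 0 and 2 above, with a median log2 fold change of -1.13, and in 14 of them both Ezh2Y646N libraries lay below both NrasQ61K libraries. None passed edgeR, while DESeq2 passed 4 as lower, against 2.75% of all genes. Mertk, a receptor for apoptotic cells and among the most abundant of the list, had a log2 fold change of -0.14 (SE 0.26). Mrc1, the mannose receptor CD206, was at 8.97 and 7.80 CPM in Ezh2Y646N and at 19.0 and 22.7 CPM in NrasQ61K, a log2 fold change of -1.31 (SE 0.29). Its adjusted p was 0.0761 in edgeR and 0.0108 in DESeq2, within a range of 0.00382 to 0.289 over all alternatives. The other 3 that DESeq2 passed, named after their values were seen, were the complement gene C1qb, the haemoglobin receptor Cd163 and the oxidase subunit Cybb. C1qb was at 2.24 and 1.59 CPM in Ezh2Y646N and 7.52 and 9.78 CPM in NrasQ61K. In all 4 of these genes both Ezh2Y646N libraries lay below both NrasQ61K libraries, which is likely for genes picked as passed lower and adds no support.

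The Langerhans list without the members had 8 of 9 tested genes below 0 and a median of -0.70, which was -0.001 without NrasQ61K replicate 2. None passed edgeR, and DESeq2 passed 1 as lower and 1 as higher, where it passed 2.75% of all genes as lower and 3.69% as higher. Its most abundant genes, Cd24a, Epcam, Id2 and the ligand Il34, are also expressed by epithelial cells. Cd24a had a log2 fold change of -0.03 (SE 0.33) and Epcam, an adhesion molecule, had -0.49 (SE 0.38). Id2, an inhibitor of helix-loop-helix factors needed by Langerhans cells, was at 35.9 and 31.3 CPM in Ezh2Y646N and 90.6 and 63.3 CPM in NrasQ61K. Its log2 fold change was -1.19 (SE 0.26), with an adjusted p of 0.0711 in edgeR and 0.00456 in DESeq2, within 0.000505 to 0.286 over all alternatives.

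The ligands of Csf1r, Il34 and Csf1, stood in another order of libraries than their receptor. Il34, made in skin by keratinocytes and required by Langerhans cells, was at 37.2 and 44.2 CPM in Ezh2Y646N and at 5.12 and 17.5 CPM in NrasQ61K. Both Ezh2Y646N libraries lay above both NrasQ61K libraries, and the log2 fold change was 1.84 (SE 0.51), with an adjusted p of 0.134 in edgeR and 0.00538 in DESeq2. Without NrasQ61K replicate 2 the log2 fold change of Il34 was 3.03, and without NrasQ61K replicate 1 it was 1.22. Over all alternatives the adjusted p of Il34 ranged from 4.05e-07 to 0.431. The ratio of Il34 to Csf1r was 16.6 and 8 in Ezh2Y646N and 0.862 and 1.09 in NrasQ61K, with no overlap. Each gene alone already separated the groups, in opposite directions, so the lack of overlap adds nothing. The counts of Csf1r are also uncertain, as stated above. Csf1, the other ligand, was at 35.6 and 39.6 CPM in Ezh2Y646N and 23.6 and 44.7 CPM in NrasQ61K, with a log2 fold change of 0.14 (SE 0.33). Keratin genes took 6.47% and 5.44% of counts in Ezh2Y646N and 1.71% and 3.71% in NrasQ61K, and the part of keratinocyte RNA in the values of Il34 was not tested.

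The list of Csf1r ligands and of chemokines that draw myeloid cells, with Il34 and Csf1 in it, had 8 of 11 tested genes below 0, as were 54% of all genes. Its median was -0.94, and -0.36 without NrasQ61K replicate 2. None of the list passed edgeR, and DESeq2 passed 3 as lower and 1 as higher, against 2.75% and 3.69% of all genes. Cxcl14, a chemokine of epithelium and stroma, was at 96.5 and 191 CPM in Ezh2Y646N and at 320 and 426 CPM in NrasQ61K, a log2 fold change of -1.38 (SE 0.35). Its adjusted p was 0.111 in edgeR and 0.00439 in DESeq2, within 4.16e-05 to 0.476 over all alternatives. Cxcl12 had a log2 fold change of -0.93 (SE 0.33) and Tgfb1, a cytokine needed by Langerhans cells, had -0.67 (SE 0.23), neither past the threshold in edgeR or DESeq2. The monocyte chemokines Ccl2 and Ccl8, named after their values were seen, were the other 2 that DESeq2 passed. Ccl2 was at 1.49 and 2.90 CPM in Ezh2Y646N and at 8.21 and 10.9 CPM in NrasQ61K.

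Markers of other cell types differed in their pattern over the libraries. The pan-leukocyte list had 11 of 14 tested genes below 0 and a median of -1.01, which was -0.25 without NrasQ61K replicate 2. None of it passed edgeR, while DESeq2 passed 1 as lower, Cd53, named after its values were seen (adjusted p of 0.00686 in DESeq2 and 0.0969 in edgeR, within 0.000858 to 0.352 over all alternatives). Its summed level was 69.9 and 98.7 CPM in Ezh2Y646N and 58.4 and 146 CPM in NrasQ61K. Its most abundant genes were Arhgdib with a log2 fold change of 0.78 (SE 0.39), the actin bundler Lcp1 with -1.01 (SE 0.47), Ptprc, and the integrin chain Itgb2 with -1.30 (SE 0.55). The dendritic cell list had 7 of 8 tested genes below 0, a median of -0.99, which was -0.06 without NrasQ61K replicate 2, and a summed level of 31.2 and 38.5 CPM in Ezh2Y646N and 38.5 and 53.6 CPM in NrasQ61K. Its most abundant genes were Irf4, Irf8, Zbtb46 and Itgae, with Irf4 between 17.2 and 24.7 CPM. Irf4 was the largest part of the summed level in every library, and which cells its RNA came from was not tested. The defining genes of the cross-presenting dendritic cell, Xcr1 and Clec9a, and that of the plasmacytoid cell, Siglech, were under 0.3 CPM in every library, and each had no count in at least 2 of the 4 libraries.

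The lymphocyte list had 5 of 7 tested genes below 0 and a median of -0.30, which was 1.99 without NrasQ61K replicate 2 and 0.18 without Ezh2Y646N replicate 1, with a summed level of 45.7 and 71.0 CPM in Ezh2Y646N and 39.6 and 84.3 CPM in NrasQ61K. Most of that came from Thy1, which fibroblasts also express, and Trbc2, while Cd3g and Trdc were at most 7.05 and 4.08 CPM. The B cell genes Cd79a, Cd79b and Ms4a1 were under 0.8 CPM in every library. In the list of mast cells and neutrophils only 2 of 12 genes were tested, with a median of 0.85 that was -2.17 without Ezh2Y646N replicate 1, and its most abundant genes, S100a9, Mcpt4, Cxcr2 and Hdc, were at most 4.51 CPM, in NrasQ61K replicate 2. Ly6g had no count in any library. The interferon response list, with Irf1, Ifngr1 and Irf9 among its most abundant genes, had 12 of 17 genes below 0 and a median of -0.14, and none passed edgeR or DESeq2. That median was 0.54 without NrasQ61K replicate 2 and 0.24 without Ezh2Y646N replicate 1.

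Fibroblast and endothelial markers also had lower values in Ezh2Y646N. All 10 tested fibroblast genes were below 0, with a median of -1.36. That median was -1.50 without NrasQ61K replicate 2, and lay between -1.96 and -0.97 over the fits with a library left out. With all libraries edgeR passed 3 as lower, Dpt, Pdgfrb and Cd34, against 0.673% of all genes. Dermatopontin, Dpt, fell by 2.08 on the log2 scale (SE 0.37), with an adjusted p of 0.0418 in edgeR, the platelet-derived growth factor receptor Pdgfrb fell by 1.58 (SE 0.30, 0.0499) and Cd34, a stromal and vascular surface protein, fell by 1.53 (SE 0.28, 0.0461). Without NrasQ61K replicate 1, adjusted p in edgeR was 0.0779 for Dpt and 0.065 for Pdgfrb, and without Ezh2Y646N replicate 1 it was 0.129 for Dpt, 0.138 for Pdgfrb and 0.186 for Cd34. Without Ezh2Y646N replicate 2 it was 0.0722, 0.179 and 0.0955 in the same order. With limma voom none of the 3 passed, with adjusted p of 0.0693, 0.0629 and 0.0527. DESeq2 passed 5 of the list as lower, against 2.75% of all genes. The collagen genes Col1a1, Col3a1 and Col1a2 and decorin, Dcn, were the most abundant, and the list summed to 852 and 2090 CPM in Ezh2Y646N and 4113 and 2466 CPM in NrasQ61K, so that its highest library was NrasQ61K replicate 1 and not the library highest for the members. All 10 endothelial genes, with Plvap, Pecam1, Vwf and Cdh5 the most abundant, were below 0, with a median of -0.72 and a sum of 173 and 113 CPM against 257 and 246 CPM. Their median was -0.33 without Ezh2Y646N replicate 2 and -1.23 without Ezh2Y646N replicate 1. The 10 melanocyte genes had a median of 0.23, between 0.10 and 0.45 with a library left out, and a sum between 2656 and 3970 CPM. The 10 keratinocyte genes, led by Dsp, Krt10, Krt5 and Krt1, had a median of 0.31 and summed to 64600 and 60100 CPM in Ezh2Y646N and 19650 and 44060 CPM in NrasQ61K. Their median was 1.05 without NrasQ61K replicate 2, -0.02 without NrasQ61K replicate 1 and 0.03 without Ezh2Y646N replicate 2. The part of these cell types in the members' values was not tested.

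**Figure D4:**
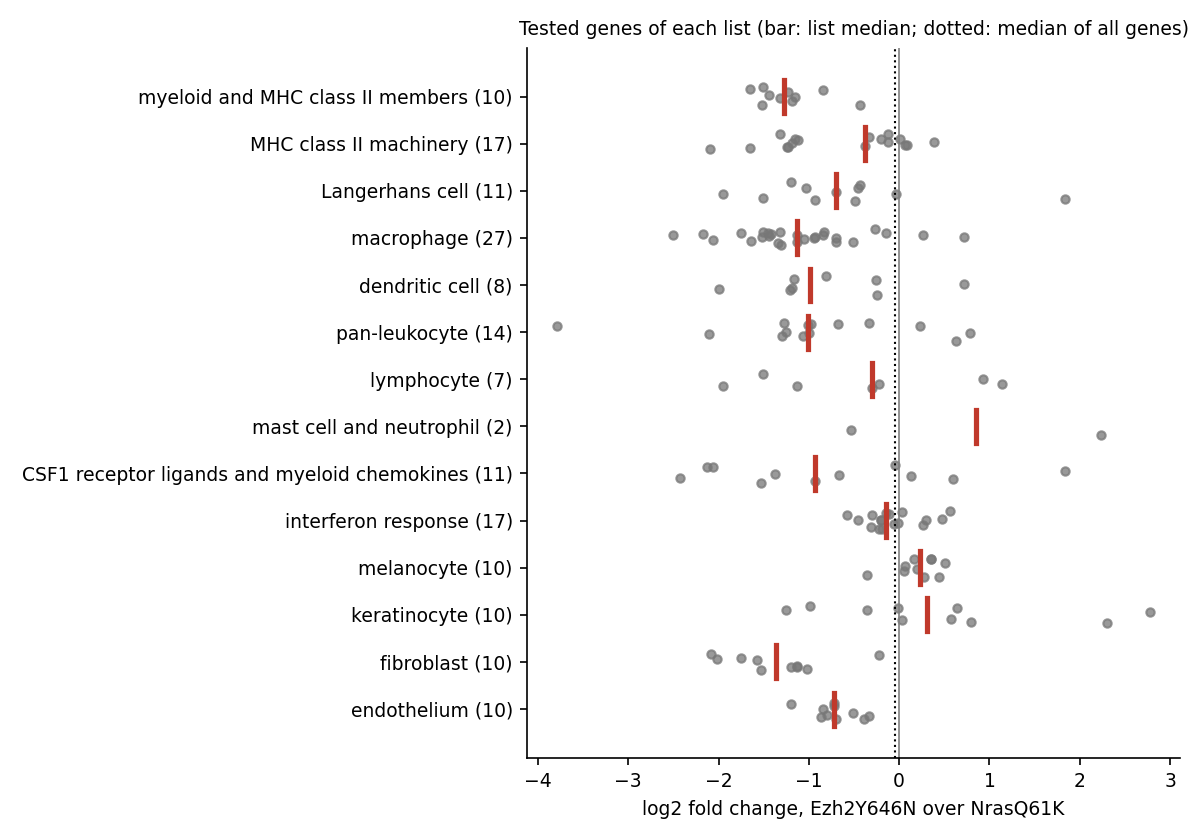
log2 fold change of Ezh2Y646N over NrasQ61K for every tested gene of the 10 members and the 13 other lists (grey points, number of tested genes in brackets), with the list median as a red bar and the median of all genes as a dotted line. The members' median is -1.27 and the macrophage list's is -1.13, while the melanocyte list's is 0.23 and the interferon list's is -0.14.

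Among 10001 protein-coding genes with a mean of at least 10 CPM, those whose profile over the 4 libraries lay nearest to the members' mean profile were Lcp1, Ptk2b, Ctsf, Slco2b1, Usp43, Smoc1, Apoe, Thbs1, Tril and Ablim3. Likeness was the Euclidean distance between log2 CPM values, with 0.5 CPM added, centred over the 4 libraries, and 4 points give little power to tell profiles apart. The members' mean profile was -1.02 and -0.09 in Ezh2Y646N and -0.07 and 1.18 in NrasQ61K. The nearest, Lcp1, lay at a distance of 0.239, and was at 6.04 and 10.8 CPM in Ezh2Y646N and 10.2 and 23.6 CPM in NrasQ61K. It was the only 1 of the 10 in any of the lists. Apoe, apolipoprotein E, was the most abundant of them, at 2255 and 4524 CPM in Ezh2Y646N and 3351 and 8640 CPM in NrasQ61K. Among the members themselves H2-Aa lay nearest to the mean profile, at 0.143, and Cd207 farthest, at 1.78.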

How the data were processed

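RNA was sequenced from 4 libraries of sorted tdTomato-positive mouse skin cells, 2 labelled Ezh2Y646N and 2 labelled NrasQ61K, made per the labels' protocols with a stranded total RNA kit for small inputs. The authors deposited whole-number read counts per Ensembl gene with no normalization. The build was GRCm38, and the tools were STAR 2.5.4b, featureCounts, bcl2fastq 2.19, Trimmomatic and edgeR, per the submitters' processing notes. Neither strand setting nor annotation release is given in the sources used here. Symbols, positions (1-based) and exon lengths came from GENCODE M21 on GRCm38, which matched 22214 of 22524 identifiers. Of 186 list genes, 183 had a row, and Clec7a, Flt3l and H2-Ea did not.

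The test was edgeR 4.0.16's, run under R 4.3.3 (filterByExpr with a minimum count of 10, TMM, robust quasi-likelihood fit, no block), with Benjamini-Hochberg adjustment over the 14265 genes tested and a threshold of 0.05. SE is the fold change divided by the square root of F. With 2 libraries against 2 an exact permutation test cannot go below 0.333, so none was run. Alternatives were DESeq2 1.42.0, limma 3.58.1 voom, other scalings, filters and dispersions, a replicate block, and each library left out. The test was checked on simulated data.

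The members and lists were chosen with earlier results of these data known, so no list was tested and no p is adjusted over a list. Named were the members, each measured MHC class II pathway gene, the 4 most abundant genes of each other list, list genes past the threshold and the 10 nearest genes; others are said to be chosen after seeing values. List counts and medians include a few genes that are not reported here by name.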

Additional observations from a re-analysis of the deposited data

How the results depend on the processing

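The members' log2 fold changes were below 0 in 124 of 129 combinations of gene and alternative. Their median lay between -1.26 and -1.32 under the other tools, scalings, filters, dispersion and block, and between -1.90 and -0.32 with a library left out. The number past the adjusted threshold was 0 with edgeR, 0 with voom, 3 with DESeq2, 8 with no low-count filter and 8 with the replicate block, and 0 to 3 with a library left out; the number of all genes lower went from 96 to 393 with DESeq2, 616 with no filter and 627 with the block, and was 43 to 393 with a library left out. The fits with 8 members took almost no spread of each gene's own: prior degrees of freedom were infinite without the filter and 75 with the block, against 5.67. Members at an unadjusted p under 0.05 numbered 6, and 1 to 8 with a library left out.

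Same-numbered libraries share a number in their titles, and whether they share anything else is not known. Their deviations from the group means correlated at 0.141, which with 2 pairs does not decide it. Direction turned, always with adjusted p above the threshold, for Cd207 with voom (0.15) and with the replicate block (0.085), for Ciita with voom (-0.057) and for Rfx5 with upper-quartile scaling (-0.012). With a library left out the log2 fold change spanned 0 for Cd207 (-1.29 to 2.20), Adgre1 (-1.87 to 0.14), H2-DMb1 (-0.83 to 0.33), H2-Ob (-0.93 to 0.81), Ciita (-0.64 to 0.58), Rfx5 (-0.11 to 0.14), Ctsl (-0.27 to 0.083), Ifi30 (-0.091 to 0.28), Cd24a (-0.56 to 0.35), Epcam (-0.98 to 0.30), Mertk (-0.33 to 0.097) and Csf1 (-0.25 to 0.71). Medians of the other lists with 1 or more of the libraries left out in turn stand beside each list above. The cause was not tested. With 2 libraries a group and 4 to 122 counts for Cd207 and Adgre1, small differences were not detectable.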
